A study of Mus musculus with 2 samples.

Results

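Among the cells of embryonic mouse eyecups was a group from which little RNA was captured, with almost no transcripts of the mitochondrial genome. Its members were chosen by 4 limits on each cell: more than 200 and at most 1200 genes detected, under 1% of UMIs (unique molecular identifiers, each counting 1 captured RNA molecule) from the mitochondrially encoded mt- genes, under 20% from the hemoglobin genes Hba- and Hbb-, and under 1% from the lens crystallins Cryaa and Cryab. The limits were met by 851 of the 10315 control cells (8.25%, 95% binomial interval 7.73 to 8.80%) and by 910 of the 12672 DKO cells (7.18%, 6.74 to 7.64%), which makes 1761 of 22987 cells. These are called low-RNA low-mt cells here.

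The study profiled eyecups of 1 control and 1 DKO embryo at E13.5 by droplet single-cell RNA-seq, with 1 library for each. The DKO embryo was Six3F/F;Six6-/-;a-Cre, in which the a-Cre transgene removes Six3 from the peripheral retina only and Six6 is deleted in all cells, and it was picked by its GFP-positive rosettes. The control was a GFP-negative littermate of genotype Six3+/-;Six6+/-, which therefore lacked 1 copy of each gene as well. Both eyecups were dissociated with papain and held retina, lens and blood. Because each genotype had 1 library, no difference could be tested against variation between embryos, and every interval given covers counting error only.

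Transcripts of the mitochondrial genome lie inside the mitochondria, long noncoding RNAs such as Malat1 and Kcnq1ot1 stay in the nucleus, and mRNAs of secreted and membrane proteins are translated at the endoplasmic reticulum (ER), whereas mRNAs of ribosomal proteins are free in the cytosol. The share of a cell's UMIs that falls on each of these groups is given below as a value of the listed genes. RNA of a compartment as a whole was not measured. In the retina at this age, naive progenitors divide, progenitors that express Atoh7 give rise to the first neurons, and most of these are retinal ganglion cells.

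Gm42418 and AY036118, the features most raised in these cells, are long noncoding RNA annotations at 1 locus that overlaps a copy of the ribosomal RNA repeat. In GENCODE vM21 (build GRCm38, the same as mm10) Gm42418 spans chr17:39846958-39848788 on the plus strand, 1831 bases, and AY036118 spans chr17:39847113-39848035 on the minus strand, 923 bases. The whole of AY036118 is the reverse complement of bases 156 to 1078 of Gm42418, which is 50.4% of that feature. The stretch below, chr17:39847147-39847192, is printed on each strand because it shows that both names cover the same bases and because it holds the longest run of A in Gm42418, 6 bases, in capitals. The sources used here do not state how strand was handled in counting, so the split of reads between both features is uncertain and their sum is the quantity compared.
Gm42418: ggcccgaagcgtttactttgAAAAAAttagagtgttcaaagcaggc
AY036118: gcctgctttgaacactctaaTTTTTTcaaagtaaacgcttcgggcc

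By the limits that defined them, the low-RNA low-mt cells were small libraries. Control cells had a median of 999 UMIs from 605 genes, DKO cells one of 986 UMIs from 617 genes, and the smallest held 501 and 500 UMIs. Mitochondrial genes made up a median of 0.304% of their UMIs in the control and 0.290% in the DKO, and 113 control cells (13.3%) and 100 DKO cells (11.0%) had no mitochondrial UMI at all. The comparison cells were those in which over 1200 but under 6000 genes were detected and 1 to 20% of UMIs were mitochondrial. They numbered 7234 in the control and 9795 in the DKO, with medians of 8301 and 6488 UMIs, 2975 and 2585 genes, and 5.95% and 4.97% mitochondrial UMIs. No gap separated the low-RNA low-mt cells from their neighbours: among control cells with few genes, 103 lay within 0.25 percentage points below the limit of 1% mitochondrial UMIs and 67 within 0.25 above it, and among DKO cells 92 and 63 did. At the limit on genes, 31 control and 34 DKO cells had between 1100 and 1200 genes, and 16 and 25 had between 1200 and 1300. The libraries shared 22 cell barcodes, and 1 DKO low-RNA low-mt cell had a barcode that also occurred in the control library.

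**Figure D1:**
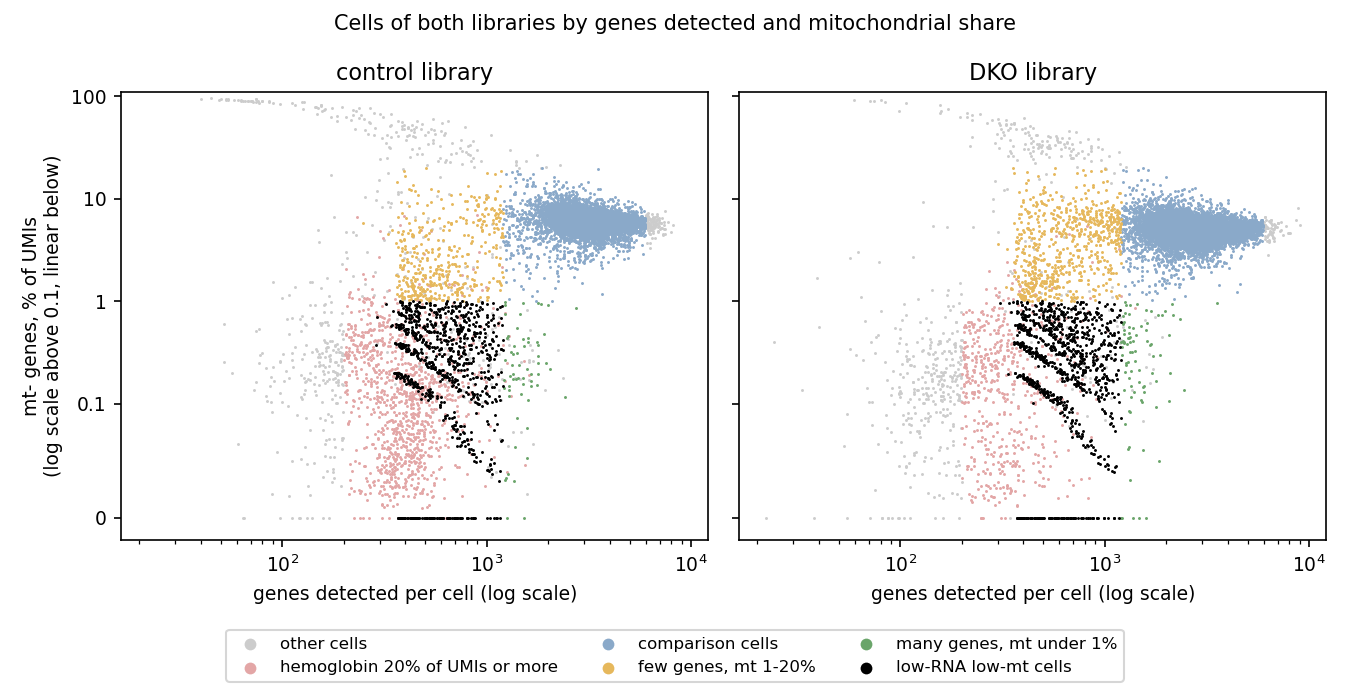
Each point is a cell of the control (left) or DKO (right) library, by genes detected (log scale) and the percentage of UMIs from mt- genes (log scale above 0.1, linear below). The 851 control and 910 DKO low-RNA low-mt cells (black) run on without a gap into few-gene cells with 1 to 20% mitochondrial UMIs (yellow); the oblique lines of points are cells with 1, 2 or 3 mitochondrial UMIs.

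The rRNA-repeat features were more than 5-fold higher in the low-RNA low-mt cells than in the comparison cells. Both of them and Ube2c were picked with their high levels in these cells known, so their ratios are a description. Gm42418 stood at 13259 CPM (UMIs per 1000000 UMIs of the pooled cells) in the control low-RNA low-mt cells against 2373 in the comparison cells, a log2 ratio of 2.48 (2.46 to 2.51), and at 8897 against 1688 in the DKO, a log2 ratio of 2.40 (2.37 to 2.43). AY036118 was at 1364 against 201 CPM in the control and at 838 against 139 in the DKO. At least 1 UMI of either feature was found in all but 1 of the 1761 low-RNA low-mt cells. The same held for all 7234 control and all but 2 of the 9795 DKO comparison cells, so detection did not set the classes apart. Summed, both features gave a log2 ratio of 2.51 in the control and 2.41 in the DKO. Gm26917, another long noncoding RNA annotated just upstream, went the other way, with log2 ratios of -1.70 (-2.23 to -1.22) and -1.11 (-1.57 to -0.68). Lars2, which encodes the mitochondrial leucyl-tRNA synthetase, was the only other gene with a log2 ratio over 1.6 in both libraries outside the markers of macrophages, at 1.84 (1.66 to 2.01) and 1.69 (1.48 to 1.90).

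Over the whole transcriptome the difference was mostly downward. Of 5874 genes with a mean of at least 20 CPM, leaving out those the limits used, 41 (0.698%) were at least 2-fold higher and 1068 (18.2%) at least 2-fold lower in the control. The DKO gave 108 (1.84%) and 1183 (20.1%). Both libraries together gave 27 genes higher (0.46%) and 837 lower (14.2%). The median log2 ratio over all 5874 genes was -0.19 in the control and -0.17 in the DKO, and the values of gene groups below are to be read beside it. The upper quartile was 0.28 and 0.32. The sign was the same in both libraries for 5051 of the 5874 genes, a count that holds genes above 0 and genes below 0. It is thus no background for counts in a single direction, and the share of each direction is not given here. With the median below 0 in both libraries, most genes lay below 0 in each. As each level is a share of a pool's UMIs, a lower share of 1 group raises the shares of the others.

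Of the groups of genes listed by process or compartment, nuclear long noncoding RNAs had the lowest ratio after the mitochondrial genes. All 4 of the list that passed the level filter, of 14 listed, were at least 2-fold lower in both libraries, against 14.2% of all genes. Malat1, which sits in nuclear speckles, was at 3443 CPM against 14983 in the control comparison cells and at 3445 against 20120 in the DKO, log2 ratios of -2.12 (-2.17 to -2.07) and -2.55 (-2.59 to -2.50). Kcnq1ot1, the antisense RNA that silences genes of its imprinted domain, was at 36.4 against 902 CPM in the control and 57.7 against 812 in the DKO, log2 ratios of -4.63 (-5.15 to -4.16) and -3.82 (-4.21 to -3.45), with the limit that reads of its sense partner Kcnq1 cannot be told apart where strand handling is not given. Meg3 had log2 ratios of -3.54 and -2.45 and Miat of -2.18 and -1.09. Summed, the list was at -2.20 (-2.25 to -2.15) in the control and -2.56 (-2.60 to -2.51) in the DKO.

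The low level of these nuclear long noncoding RNAs, most of whose UMIs were Malat1, was visible cell by cell. Malat1 had no UMI in 302 control low-RNA low-mt cells (35.5%) and 338 DKO ones (37.1%), but in 5 and 13 of the comparison cells. To set cells of unequal depth side by side, each was thinned at random to 500 UMIs, which left out none of them. At that depth at least 2 UMIs of the nuclear long noncoding RNAs were found in 36.3% (33.1 to 39.6%) of the control low-RNA low-mt cells and 26.8% (24.0 to 29.8%) of the DKO ones, against 96.4% and 97.4% of comparison cells within the same hemoglobin and crystallin limits. Red blood cells, which had medians of 86.1% and 87.1% hemoglobin UMIs and of 8736 and 6710 UMIs before thinning, reached 2 UMIs in 64.5% and 46.5%. Many red blood cells still have nuclei at this age, so their nuclear RNA can be their own and their shares are given beside the others without serving as a background for this list. Malat1 alone gave the same order, with at least 1 of 500 UMIs in 52.6% and 46.9% of low-RNA low-mt cells, 76.3% and 56.6% of red blood cells and 98.6% and 99.2% of comparison cells.

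mRNAs of splicing factors and chromatin regulators were lower to a smaller degree, with summed log2 ratios of -0.54 and -0.51. Of these, 9 of 28 were at least 2-fold lower in both libraries, against 14.2% of all genes. The mRNAs translated at the ER were lower as a group. Of 28 listed, 15 were at least 2-fold lower in both libraries, against 14.2% of all genes, and none was at least 2-fold higher. The median gene stood at -1.06 in the control and -1.26 in the DKO. Hspa5, the main ER chaperone, was at 183 against 640 CPM in the control and 138 against 562 in the DKO, log2 ratios of -1.81 (-2.03 to -1.60) and -2.03 (-2.28 to -1.79). Rpn1, a subunit of the oligosaccharyltransferase, had log2 ratios of -2.15 (-2.84 to -1.54) and -2.03 (-2.69 to -1.44). Only 3 of the 28 were above 0 in both libraries: Spcs1, a subunit of signal peptidase, and Sec61b and Sec61g, small subunits of the translocon, with Sec61b at 0.51 (0.37 to 0.65) and 0.49 (0.36 to 0.62).

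Cytosolic and housekeeping mRNAs made up a larger share instead. Among all 5874 genes tested, 5051 had the same sign in both libraries, up or down. That count is no background for the counts in a single direction given below. All 81 ribosomal protein genes tested were above 0 in both libraries and none reached 2-fold, and as a group they took 289820 CPM in the control low-RNA low-mt cells and 266030 in the DKO ones, against 192600 and 173440 in the comparison cells. Translation factors, among them Eef1a1, were summed at log2 ratios of 0.43 and 0.41, and enzymes of glycolysis at 0.42 and 0.62. Of the 14 histone variants and small chromatin proteins, all were above 0 in both libraries, with H2afz, a variant of histone H2A, at 0.79 (0.75 to 0.84) and 1.02 (0.98 to 1.06). Immediate early genes such as Fos were lower, at summed log2 ratios of -0.42 and -0.64, with all 12 tested below 0 in both. Cytoskeletal genes and cytosolic chaperones were at 0.16 and 0.06, and heat shock genes stood at 0.31 and 0.36. Targets of p53 and apoptosis genes showed no common direction, at -0.21 (-0.34 to -0.09) in the control and 0.02 (-0.10 to 0.13) in the DKO, and read against the median of all genes they lay at -0.03 and 0.18.

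The respiratory chain is built from proteins of both genomes, and its 2 sets of mRNAs stood apart in these cells. The 13 mitochondrially encoded mRNAs, which the limits used, were at a summed log2 ratio of -4.16 in the control and -3.95 in the DKO, with mt-Co1 at 291 against 6165 CPM in the control. The nuclear-encoded subunits were slightly higher instead, at 0.43 (0.41 to 0.46) and 0.42 (0.39 to 0.44), with 24 of 26 above 0 in both libraries and none at 2-fold. Cox4i1, a nuclear-encoded subunit of the same complex as mt-Co1, was at 1112 against 882 CPM in the control and 1155 against 963 in the DKO.

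**Figure D2:**
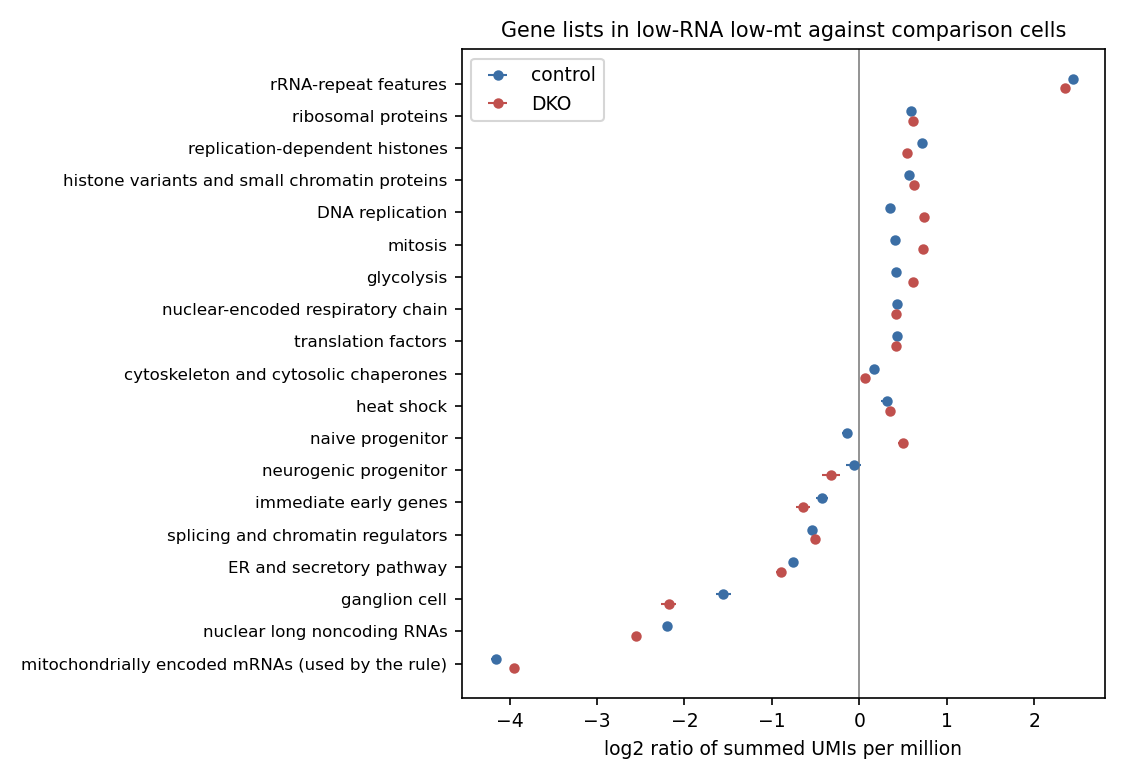
Log2 ratio of the summed CPM of each gene list, low-RNA low-mt to comparison cells, for the control (blue) and DKO (red) library; bars are 95% intervals for counting error. The mitochondrially encoded mRNAs, which the limits used, are at -4.16 and -3.95, nuclear long noncoding RNAs at -2.20 and -2.56, and rRNA-repeat features (with Gm26917) at 2.45 and 2.35.

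Genes of mitosis were higher in both libraries. The list summed to 6483 CPM in the control low-RNA low-mt cells against 4874 in comparison cells, a log2 ratio of 0.41 (0.38 to 0.45), and to 7279 against 4391 in the DKO, 0.73 (0.70 to 0.76). Ube2c, which encodes the E2 enzyme of the anaphase-promoting complex, was at 478 against 209 CPM in the control and 543 against 194 in the DKO, log2 ratios of 1.19 (1.06 to 1.32) and 1.49 (1.36 to 1.61). Of 41 mitosis genes tested, 6 were at least 2-fold higher in both libraries, against 0.46% of all genes. They were Ube2c, the mitotic kinases Cdk1 and Aurkb, the survivin gene Birc5, Nusap1 and the securin gene Pttg1. Ube2c was picked with its high level known and the list with earlier results of these data known, so this count is a description. Mki67 was the 1 gene of the list at least 2-fold lower in both, at log2 ratios of -1.08 and -1.04. Genes of DNA replication were summed at 0.35 (0.30 to 0.39) in the control and 0.74 (0.69 to 0.78) in the DKO. Per cell, at least 2 of 500 UMIs fell on the mitosis list in 57.3% (53.9 to 60.7%) of control and 62.6% (59.4 to 65.8%) of DKO low-RNA low-mt cells, in 43.5% and 34.7% of comparison cells, and in 7.59% and 7.81% of red blood cells. Without thinning at least 2 mitosis UMIs were found in 74.5% and 77.4% of low-RNA low-mt cells and in 70.7% and 74.2% of the deeper red blood cells. Between cells marked as naive, as given further on, none of these 6 genes kept a 2-fold ratio in both libraries. DNA replication there stood at 0.11 (0.04 to 0.17) and 0.19 (0.12 to 0.26).

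The size and sign of a gene's ratio went with the length of its transcript. Genes whose longest annotated transcript was up to 1000 bases had a median log2 ratio of 0.50 in the control and 0.49 in the DKO. The median was 0.31 and 0.31 from 1000 to 2000 bases, -0.07 and -0.04 from 2000 to 4000, -0.61 and -0.63 from 4000 to 8000, and -1.20 and -1.20 above 8000. Of the 456 genes above 8000 bases, 230 were at least 2-fold lower in both libraries, against 14.2% of all genes. None was at least 2-fold higher in either. Leaving out ribosomal protein genes changed the median of the shortest class to 0.46 and 0.46. Of the 28 ER genes, 20 had transcripts of 2000 to 4000 bases, and their medians were -1.11 and -1.30, below the -0.07 and -0.04 of all genes in that class. Only the ER list was set beside genes of like length. For the other lists, nuclear long noncoding RNAs and ribosomal proteins among them, the part of transcript length was not tested.

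Several of the 12 lowest genes had only a few UMIs left in the low-RNA low-mt cells. Reln, which encodes the secreted protein reelin and has a longest transcript of 11699 bases, had 6 UMIs in all control low-RNA low-mt cells and 2 in the DKO ones, with log2 ratios of -3.12 (-4.57 to -2.00) and -4.56 (-7.61 to -2.71). Fat4, an atypical cadherin gene of 16109 bases, had 5 and 2 UMIs and ratios of -3.15 (-4.78 to -1.93) and -3.95 (-6.99 to -2.09). Others in that set were Slit2, an axon guidance ligand, Vldlr, a reelin receptor, and Chrna4, a subunit of the nicotinic acetylcholine receptor. The granule protein gene Chgb had 1 UMI in the control cells and 5 in the DKO ones, at -4.64 (-9.94 to -2.16) and -3.53 (-5.15 to -2.30), and Sel1l, a part of ER-associated degradation, had ratios of -3.14 and -3.45. Mki67, with a longest transcript of 10061 bases, also belonged to the length class with the lowest median.

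**Figure D3:**
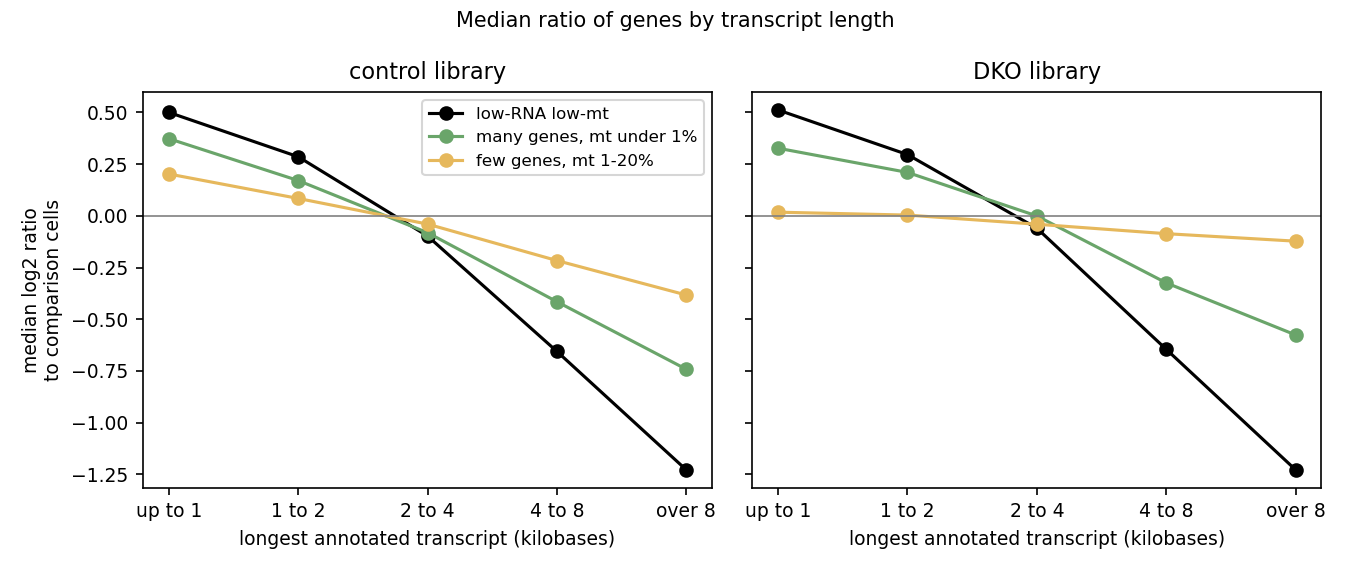
Median log2 ratio to comparison cells within the same hemoglobin and crystallin limits, by the longest annotated transcript of each gene, in the control (left) and DKO (right) library. Low-RNA low-mt cells (black) go from 0.50 and 0.51 in the shortest class to -1.23 and -1.23 in the longest; many-gene cells with under 1% mitochondrial UMIs (green) and few-gene cells with 1 to 20% (yellow) have flatter lines.

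The limit on genes and that on mitochondrial UMIs could be looked at separately, since other cells met only 1 of them, although the cells with more genes lay close past the limit. Few-gene cells with 1 to 20% mitochondrial UMIs numbered 424 in the control and 684 in the DKO, and cells with more than 1200 genes and under 1% mitochondrial UMIs numbered 61 and 87, with medians of 1457 and 1352 genes. These many-gene cells thus still held fewer genes than the comparison cells, and low gene number and low mitochondrial content were not fully separated. Of the rRNA-repeat features, Gm42418 was at 14813 and 8863 CPM in the few-gene cells with mitochondrial RNA, close to the 13259 and 8897 of the low-RNA low-mt cells, but at 6194 and 3701 in the many-gene cells without it. Mitosis genes were at 7700 and 8622 CPM in the many-gene cells and 5161 and 4487 in the few-gene cells, where comparison cells within the limits had 5080 and 4428. The ER list was at 6434 and 6088 CPM in comparison cells, 5226 and 5330 in the few-gene cells, 4279 and 3825 in the many-gene cells and 3789 and 3294 in the low-RNA low-mt cells. Nuclear long noncoding RNAs were intermediate in both other classes, at 8163 and 14836 CPM in few-gene cells and 9126 and 15143 in many-gene cells, and were lowest, at 3533 and 3638, where both limits were met. The dependence on transcript length was also steepest where both were met, with medians of -0.38 and -0.12 above 8000 bases in the few-gene cells, -0.74 and -0.58 in the many-gene cells, and -1.23 and -1.23 in the low-RNA low-mt cells.

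**Figure D4:**
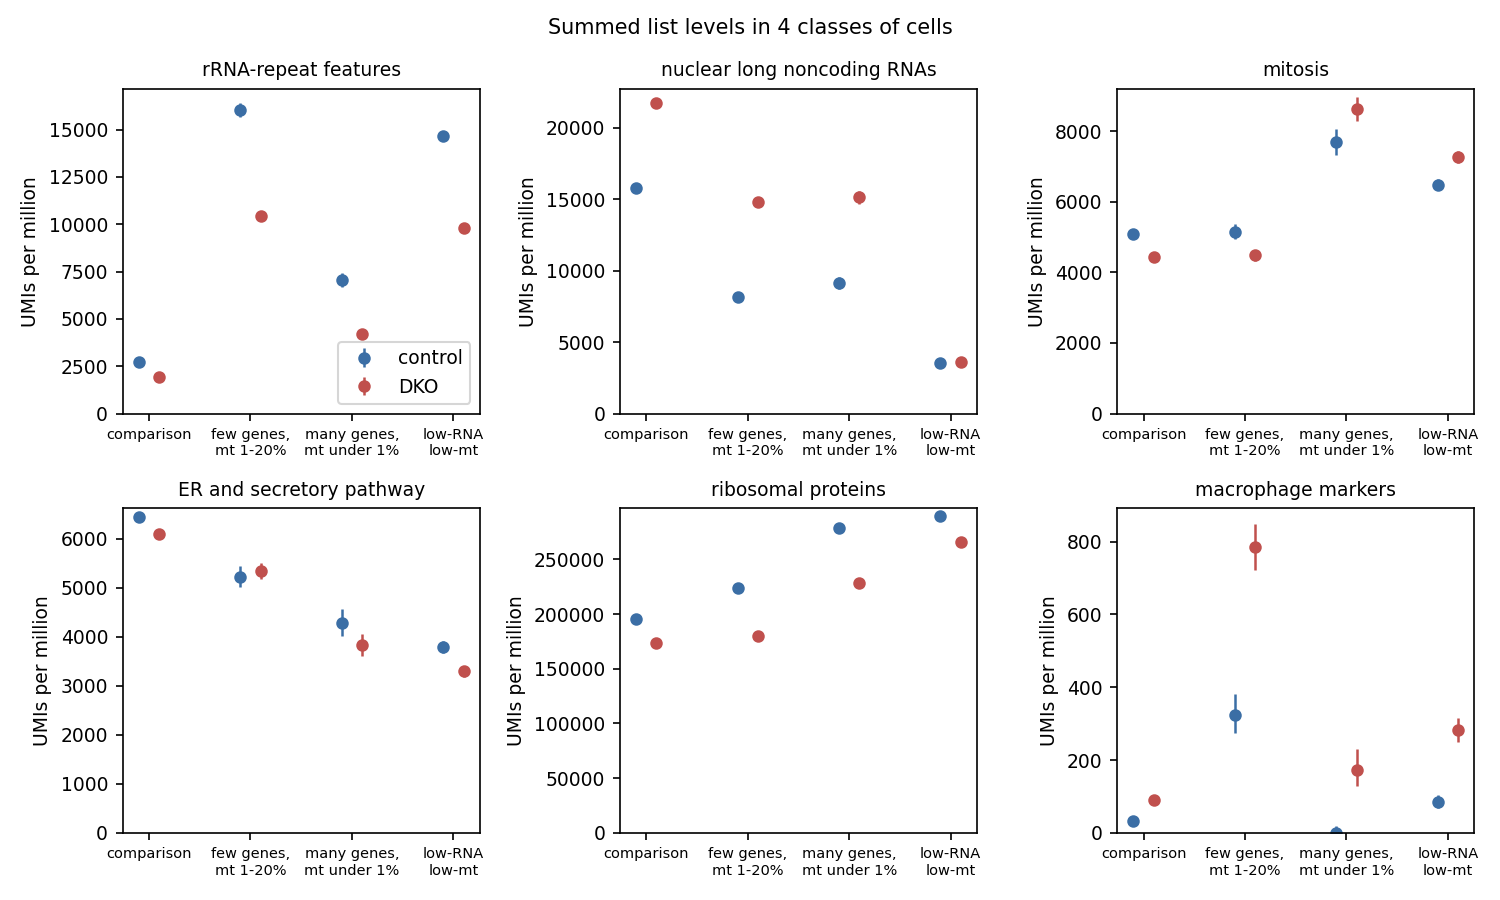
Summed CPM (axis from 0) of 6 gene lists in comparison cells within the limits, few-gene cells with 1 to 20% mitochondrial UMIs, many-gene cells with under 1%, and low-RNA low-mt cells, for control (blue) and DKO (red); bars are 95% Poisson intervals. Nuclear long noncoding RNAs are lowest in the low-RNA low-mt cells, at 3533 and 3638, and macrophage markers are highest in the few-gene cells, at 324 and 784.

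The low-RNA low-mt cells also varied among themselves. Gm42418 and AY036118 together were at 21463 CPM in the 247 control cells with up to 700 UMIs, at 18532 in the 274 with 700 to 1200 and at 11233 in the 330 with more, and at 16716, 11858 and 7039 in the same bins of the DKO. Ribosomal protein genes went the other way, from 243020 to 309720 CPM in the control and from 234940 to 281290 in the DKO, between the smallest and the largest cells. Along the mitochondrial share, Malat1 was lowest where mitochondrial UMIs were fewest, at 2650 CPM below 0.25% and 4709 between 0.5 and 1% in the control, and at 2501 and 4572 in the DKO. The rRNA-repeat features hardly changed along that axis in the control, with 14621, 14928 and 14338 CPM in its 3 bins, and were at 9018, 10094 and 10771 in the DKO.

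Markers of naive progenitors were the retinal markers found most often in these cells. With cells thinned to 500 UMIs, at least 2 UMIs of the naive progenitor list (with Sfrp2, Ccnd1, Dapl1 and Rax) were found in 43.2% (39.9 to 46.6%) of the control and 38.7% (35.5 to 41.9%) of the DKO low-RNA low-mt cells, against 46.5% and 24.7% of comparison cells within the limits and 2.86% and 2.36% of red blood cells. Free RNA is diluted when the deeper, hemoglobin-rich red blood cells are thinned, so the unthinned shares are given too: the naive progenitor list marked 67.9% and 61.5% of low-RNA low-mt cells and 17.8% and 21.8% of red blood cells. The neurogenic progenitor list (with Atoh7 and Gadd45a) marked 14.2% (11.9 to 16.7%) and 6.81% (5.26 to 8.65%), against 17.3% and 13.3% of comparison cells and 1.22% and 2.21% of red blood cells. Without thinning the neurogenic progenitor shares were 18.4% and 10.7%, against 15.5% and 17.8% of red blood cells. In the DKO they were thus not above that background, and in the control, at 18.4% (15.9 to 21.2%), they were close to its 15.5%. Ccnd1, which encodes cyclin D1, was detected in 34.2% and 35.3% of thinned low-RNA low-mt cells, 29.5% and 19.4% of comparison cells, and 3.1% and 3.98% of red blood cells, and without thinning in 50.9% and 48.1% of low-RNA low-mt cells and 17.2% and 19.9% of red blood cells.

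Retinal ganglion cell markers were underrepresented. The ganglion cell list (with Stmn2 and Gap43) marked 10.9% (8.91 to 13.2%) of the control and 8.24% (6.54 to 10.2%) of the DKO low-RNA low-mt cells, against 22.7% and 34.9% of comparison cells and 2.37% and 4.71% of red blood cells. Without thinning the ganglion cell list marked 16.0% and 14.6% of low-RNA low-mt cells and 11.9% and 20.6% of the deeper red blood cells, so in the DKO its presence was not above that background. In level, 13 of its 15 genes tested were at least 2-fold lower in both libraries, against 14.2% of all genes. The sum stood at log2 ratios of -1.55 (-1.64 to -1.47) and -2.18 (-2.26 to -2.10). Stmn2, a tubulin-binding protein of neurons, was at 333 against 661 CPM in the control and 329 against 1243 in the DKO. Within the low-RNA low-mt cells the ganglion list was most abundant in the smallest ones, at 3099 CPM in control cells with up to 700 UMIs and 472 in those with more than 1200, and at 1789 and 843 in the DKO. At least 2 of 500 UMIs fell on amacrine or horizontal cell markers in 0.47% and 0.769% of them, not above the 0.49% and 0.442% of red blood cells beyond counting error. For photoreceptor precursor markers, 1 control and no DKO cell reached 2 of 500 UMIs, and 16 and 23 cells had at least 1.

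Naive and ganglion markers were mostly held by different cells. Among control low-RNA low-mt cells with at least 2 ganglion UMIs, 6 of 93 (6.45%) also had at least 2 naive UMIs, against 327 of 666 (49.1%) of those without a ganglion UMI, and in the DKO the values were 12 of 75 (16.0%) and 285 of 687 (41.5%). The same shares were 6.70% and 62.2% of control and 4.64% and 38.8% of DKO comparison cells within the limits. Neither list had a UMI in 18.2% of control and 25.1% of DKO low-RNA low-mt cells, against 10.6% and 17.5% of comparison cells and 86.7% and 80.6% of red blood cells.

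**Figure D5:**
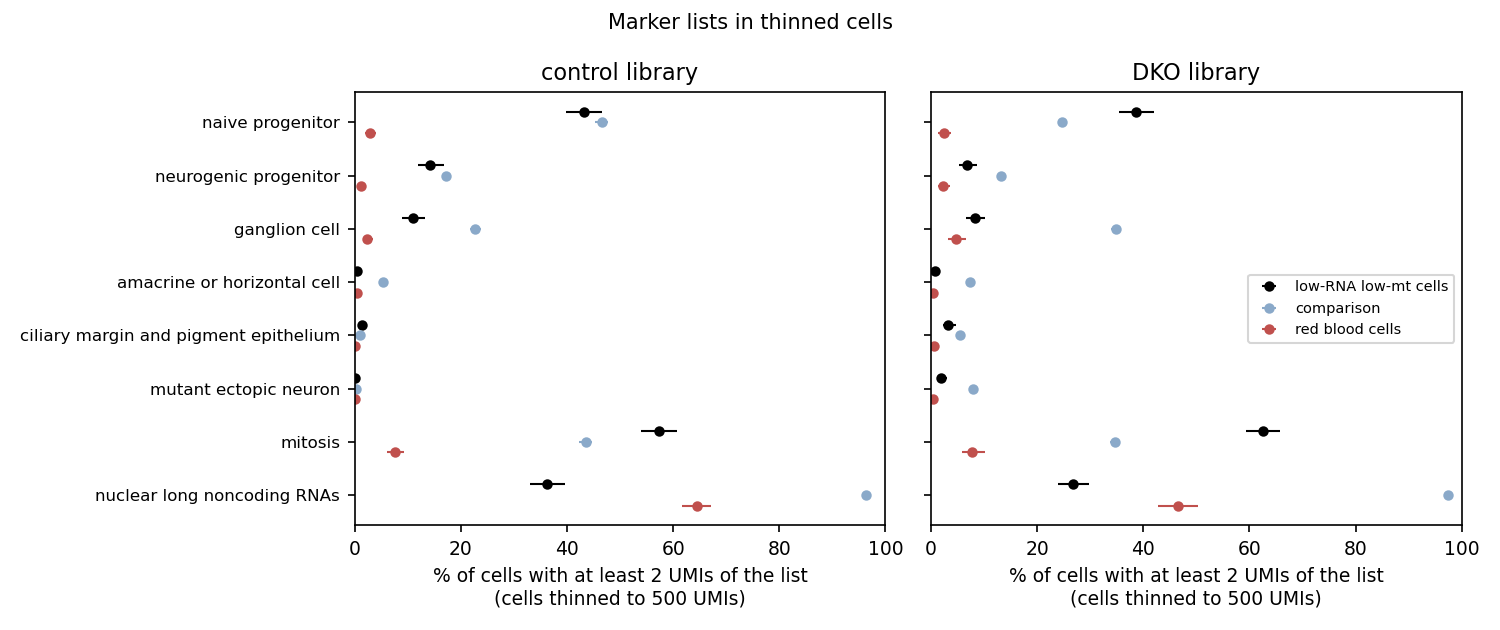
Percentage of cells, each thinned to 500 UMIs, with at least 2 UMIs of a marker list, in low-RNA low-mt cells (black), comparison cells within the limits (blue) and red blood cells (red; thinned from medians of 8736 and 6710 UMIs); bars are 95% binomial intervals. In the control the naive list marks 43.2% of the low-RNA low-mt cells and the ganglion list 10.9%, and in the DKO 38.7% and 8.24%.

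Because identities were unequally represented, the main ratios were also taken between cells marked as naive, an alternative chosen after the data had been seen. Of the low-RNA low-mt cells 327 control and 285 DKO cells, and of the comparison cells 2822 and 1899, had at least 2 naive UMIs and no ganglion UMI after thinning. This mark does not make the cells 1 identity. Macrophage markers were at 79.0 CPM in the marked DKO low-RNA low-mt cells and 12.2 in the marked DKO comparison cells, and at 0 and 9.87 in the control. The ratios below are between marked low-RNA low-mt and marked comparison cells. The rRNA-repeat features stayed at log2 ratios of 2.46 and 2.55. Nuclear long noncoding RNAs were at -1.67 (-1.74 to -1.60) and -2.48 (-2.57 to -2.38), and the ER list at -0.80 (-0.88 to -0.73) and -1.01 (-1.10 to -0.93). The mitosis list was at 0.28 (0.23 to 0.34) in the control and 0.24 (0.19 to 0.30) in the DKO, against 0.41 and 0.73 over all cells. Ube2c was at 0.93 (0.71 to 1.15) and 1.03 (0.81 to 1.24), against 1.19 and 1.49 over all cells, which took it below 2-fold in the control. DNA replication genes were at 0.11 and 0.19, against 0.35 and 0.74 over all cells. Genes at least 2-fold higher in both libraries were 6 of the 5745 that passed the level filter in the marked cells, against 27 of 5874 over all cells. Of the 6, 4 were shared with the 27 (14.8% of these and 66.7% of the 6): Gm42418, AY036118, Lars2 and the meiotic recombination gene Mnd1. At least 2-fold lower in both were 670 of the 5745, against 837 of the 5874. Of the 670 genes 500 were also among the 837, which is 74.6% of the former and 59.7% of the latter.

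Markers of other cell types were also found. Macrophage markers summed to 84.9 CPM in the control and 282 in the DKO low-RNA low-mt cells, against 31.6 and 85 in comparison cells, and the immune receptor adaptors Tyrobp and Fcer1g were among the 12 highest genes, with Tyrobp at log2 ratios of 2.09 (1.40 to 2.71) and 1.96 (1.56 to 2.34). At least 2 macrophage UMIs occurred in 10 control and 29 DKO low-RNA low-mt cells, and at least 2 platelet UMIs in 3 and 5. At least 2 UMIs of lens genes that the limits did not use occurred in 84 control (9.87%) and 26 DKO cells (2.86%), and at least 1 in 342 (40.2%) and 112 (12.3%). Of the deeper comparison cells within the limits, 23.8% and 3.97% had at least 2 such UMIs and 57.0% and 19.3% at least 1. Of the few-gene cells with 1 to 20% mitochondrial UMIs, 9.20% and 3.51% had at least 2, and their lens levels were 496 and 336 CPM. These lens genes were at 641 and 245 CPM in the low-RNA low-mt cells, against 239 and 120 in comparison cells within the same crystallin limit, log2 ratios of 1.43 (1.31 to 1.54) and 1.03 (0.84 to 1.21), and their part in the other results was not tested. There were at least 2 erythroid UMIs in 0 control cells and 1 DKO cell, and at least 2 endothelial UMIs in none of either library. Hemoglobin made up 1% of UMIs or more in 6 control cells and 1 DKO cell. Without all cells that carried a macrophage or platelet UMI or reached 1% hemoglobin, the rRNA-repeat, nuclear and mitosis ratios and the counts of genes stayed within counting error or 1.5 times of the reported values.

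The genotype was readable in the UMIs counted in these cells, and how much of that came from free RNA was not tested. Six6, the gene deleted in the DKO, was at 327 CPM in the control low-RNA low-mt cells and 46.2 in the DKO ones, a log2 ratio of DKO to control of -2.83 (-3.29 to -2.39), and in the comparison cells at 277 and 43.5, a ratio of -2.67. Six3, deleted only in the peripheral retina and already reduced to 1 copy in the control, was at 202 CPM in both, a log2 ratio of -0.00 (-0.29 to 0.29), and at -0.04 in the comparison cells. Of the 1645 genes that reached 100 UMIs and 50 CPM in the low-RNA low-mt cells of either genotype, 12 (0.729%) were at least 2-fold higher and 6 (0.365%) at least 2-fold lower in the DKO, and the median log2 ratio was 0.07.

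Most genes at the ends of that ranking had ratios of the same sign in the comparison cells. Fabp7, a fatty acid binding protein of radial glia, had 6 UMIs in the control and 151 in the DKO low-RNA low-mt cells, a log2 ratio of 4.58 (3.43 to 6.05), and 4.0 in the comparison cells. Filip1, a regulator of filamin, stood at 2.03 (1.60 to 2.47) against 1.64, Fam171b at 2.31 (1.61 to 3.08) against 1.67, and Nr2f2, an orphan nuclear receptor gene, at 1.57 (0.99 to 2.18) against 1.13. On the lower side, the Wnt modulator Sfrp2 was at 674 CPM in the control and 307 in the DKO, a ratio of -1.14 (-1.33 to -0.94) against -1.59 in the comparison cells, and the neurogenic factor gene Atoh7 at 630 and 309, a ratio of -1.03 (-1.23 to -0.83) against -0.79. Gm14226, a neurogenic marker, had 20 UMIs in the control and none in the DKO low-RNA low-mt cells. Lens crystallins also stood low in the DKO, with Crybb1 at -2.66 (-3.49 to -1.91) against -2.92 in the comparison cells, so that residual lens RNA differed between the libraries beside these genes and its part in other differences was not tested.

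Ccnd1 differed from this pattern. It was at 927 CPM in the control and 1280 in the DKO low-RNA low-mt cells, a log2 ratio of DKO to control of 0.46 (0.34 to 0.59), but at 829 and 678 in the comparison cells, a ratio of -0.29. The whole naive list was at 3180 and 3030 CPM in the low-RNA low-mt cells of both libraries, whereas the comparison cells had 3518 in the control and 2145 in the DKO. Its ratio of low-RNA low-mt to comparison cells was thus 0.50 (0.45 to 0.55) in the DKO and -0.15 (-0.20 to -0.10) in the control, the latter turning to 0.04 when read against the median of all genes. The neurogenic list was at -0.06 (-0.15 to 0.02) in the control, which turned to 0.12 in the same way, and at -0.32 (-0.43 to -0.22) in the DKO. Markers of the ectopic neurons of the mutant were at 43.4 CPM in the control and 237 in the DKO low-RNA low-mt cells, against 103 and 576 in the comparison cells. They marked 1.87% of the thinned DKO cells against 7.90% of comparison cells and 0.295% of red blood cells. Thinning dilutes free RNA in the red blood cells. Without thinning, the 679 DKO red blood cells held 521 UMIs of this list and the 910 low-RNA low-mt cells 246. Per cell, these markers were thus not above that background.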

How the data were processed

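Droplet single-cell RNA-seq (10x 3' v3) of eyecups from 1 control and 1 DKO embryo was analysed. The deposited matrices hold UMI counts per gene and cell, made by the authors from mm10 alignments with Cell Ranger 3.1.0 per the submitters' processing notes, in cells the same program called, with no further filter on cells. How strand was handled is not given in the sources used here. That cell call sets how small the smallest cells are.

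Computed here: cells were classed by genes detected and by percentages of mitochondrial, hemoglobin and Cryaa plus Cryab UMIs. UMIs were summed per class and library and given as CPM, that is UMIs per 1000000 UMIs of the pool. Ratios carry 95% intervals (exact Poisson for levels, an exact binomial split for ratios, exact Clopper-Pearson for shares) that cover counting error only. With 1 library per genotype, or 1 pool per class and library, no test was run and no p-value is given. Calls are ratios of at least 2-fold among 5874 genes with a mean of at least 20 CPM over the 4 pools. For shares, each cell was thinned at random to 500 UMIs, and red blood cells, thinned and not, gave a background level for retinal markers. No doublet caller was run. Transcript lengths, coordinates and sequences are from GENCODE vM21 (GRCm38). Python 3.11.15, numpy 2.4.6, scipy 1.17.1, pandas 2.3.3 and matplotlib 3.10.9 were used, and the ratio script was tested on simulated data.

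Named genes were Gm42418, AY036118 and Ube2c, the 12 highest and 12 lowest by the smaller of both libraries' ratios, the identity genes and the 8 highest and 8 lowest genes for DKO against control, and up to 4 genes of highest CPM per list. Cdk1, Birc5, Nusap1, Pttg1, Mki67, Hspa5, Rpn1, Spcs1 and Mnd1 were named after their values were seen. Some genes that the rule names are not reported here. The members and lists were chosen with earlier results of these data known. Alternatives covered the limits, the comparison cells, the CPM total, centring, the filter and the thinning.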

Additional observations from a re-analysis of the deposited data

Results flagged for a closer look

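The following pairs of log2 ratios lay on opposite sides of 0 with both counting intervals leaving 0 out, and their difference was not tested, since each genotype had 1 library. The naive progenitor list in low-RNA low-mt against comparison cells was at -0.15 in the control and 0.50 in the DKO, and the control value turns to 0.04 against the median of all genes. In DKO against control, the mitosis list was at 0.17 in the low-RNA low-mt cells and -0.15 in the comparison cells, and the p53 targets and apoptosis list at 0.18 and -0.046. Ccnd1 was at 0.46 in the low-RNA low-mt cells and -0.29 in the comparison cells in the same contrast, and Nusap1, a gene of the mitotic spindle, at 0.46 (0.16 to 0.77) and -0.13. Kcnq1ot1 was at 0.67 (0.05 to 1.30) and -0.15, and Isl1, a transcription factor gene of ganglion cells, at -0.56 (-1.08 to -0.04) and 0.11. Pmel, a melanosome gene, was at -1.68 (-2.54 to -0.89) and 0.67 in that contrast, and in low-RNA low-mt against comparison cells at 0.86 in the control and -1.48 in the DKO. Atp6v1d, a subunit of the vacuolar proton pump, was at -0.43 (-0.89 to -0.00) in the control and 0.33 (0.05 to 0.60) in the DKO for low-RNA low-mt against comparison cells.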

How the results depend on the processing

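No paired analysis was possible because only 1 library stood for each genotype. Of 93 alternative values 36 stayed within counting error or, for counts of genes, within 1.5 times, 55 moved further and 2 changed direction; except where stated, the cause was not tested. The 2 were ratios of the lens genes that the limits did not use, at -2.79 and -1.97 against all comparison cells, which include lens cells, and at 1.43 and 1.03 against those within the limits, a comparison added after seeing the data. In order of control and DKO, the rRNA-repeat ratio was 2.45 and 2.33 with up to 1500 genes per cell, 2.55 and 2.46 with mitochondrial UMIs under 2%, 2.59 and 2.50 with the other CPM total, 2.46 and 2.38 as a mean over cells, and 2.48 in the control against comparison cells within the limits. The nuclear long noncoding RNA ratio was -2.24 in the DKO with up to 1500 genes, -2.12 and -2.42 under 2%, -2.11 and -2.47 with the other total, and -1.93 in the control as a mean over cells. The mitosis ratio was 0.35 in the control against comparison cells within the limits, 0.50 and 0.82 with the other total, and 0.48 and 0.92 as a mean over cells. Among naive-marked cells, an alternative added after seeing the data, these ratios were 2.46 and 2.55, -1.67 and -2.48, and 0.28 and 0.24. The 27 genes higher in both libraries became 46 with the other total, 70 centred on the median and 6 (of 5745 tested) among naive-marked cells. Without the filter on low values, with 11526 genes, they became 169 and the 837 lower became 2052. The share of cells was 7.46% and 6.48% with up to 1000 genes, 5.82% and 5.24% under 0.5% mitochondrial UMIs, 10.1% and 8.74% under 2%, and 19.0% and 11.8% without the hemoglobin and crystallin limits. Thinned to 1000 UMIs, which left out 426 control and 463 DKO cells with fewer, naive progenitor markers were in 72.9% and 58.4% and ganglion cell markers in 8.47% and 11.4%. With at least 1 UMI in place of 2, the naive, neurogenic and ganglion shares were 71.0% and 64.2%, 25.5% and 18.5%, and 21.7% and 24.5%. Without thinning they were 67.9% and 61.5%, 18.4% and 10.7%, and 16.0% and 14.6%. Leaving out cells with a macrophage or platelet UMI or 1% hemoglobin, also added after seeing the data, moved none of the values. With a median of 999 and 986 UMIs per cell, a marker not seen in a cell could not be read as absent.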

Other observations

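Histones encoded by replication-dependent genes, whose mRNAs are made in S phase, were higher in the low-RNA low-mt cells as a list, at summed log2 ratios of 0.72 (0.67 to 0.76) in the control and 0.54 (0.50 to 0.59) in the DKO, with 19 of 25 tested above 0 in both libraries. Hist1h2ab was among the 12 highest genes of all, at 1.32 and 1.40. Among naive-marked cells the list was at 0.47 (0.39 to 0.54) in the control and 0.09 (0.01 to 0.17) in the DKO.

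Genes of the ciliary margin and pigment epithelium were at 233 CPM in the control and 402 in the DKO low-RNA low-mt cells, against 226 and 670 in the comparison cells, log2 ratios of 0.04 (-0.15 to 0.23) and -0.74 (-0.88 to -0.60). Amacrine or horizontal cell genes were at -2.35 and -2.60, endothelial genes at -1.86 and -1.79, and erythroid genes at -0.76 and -0.78 (-0.17 and -0.36 against comparison cells within the hemoglobin and crystallin limits). Photoreceptor precursor genes were at -1.48 and -1.34, and platelet genes, on 13 and 15 UMIs, at 3.57 (2.59 to 4.43) and 3.23 (2.34 to 4.01). Mesenchyme and pericyte genes had 1 UMI in the control and 10 in the DKO low-RNA low-mt cells.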
